A study of Mus musculus with 12 samples.

Results

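Glycolysis and the hypoxia response were followed as a module of 35 genes, taken by symbol from a table of 30743 genes or transcripts. It holds 22 genes of glycolysis, from glucose uptake to lactate export, and 13 genes of the hypoxia response. The 12 RNA libraries come from sorted cancer cells of lung tumours in mice of a mixed BL6/129 background. KT, the genotype shared by every group, has 4 libraries and serves as the control. KT;Lkb1f/f, which adds floxed Lkb1 (Stk11) alleles, has 3 libraries, called Lkb1-deleted here. KT;H11LSL-Cas9_sgSik adds a Cre-dependent Cas9 allele and guides against Sik genes and has 5 libraries, called Sik-targeted, of which 3 are titled sgSik1 and 2 are titled sgSik1-3. The KT genotype names no Cas9 allele, so Cas9 itself and the guides cannot be told apart in a comparison with KT. The alternative names mention lentiviral Cre for KT replicates 2, 3 and 4 only. The labels used here give neither the age of the mice nor the time of tumour growth, nor whether libraries of 1 group are from separate animals. The p values thus reflect only the spread among libraries, part of which may be technical.

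Glycolysis splits glucose into pyruvate in the cytosol, and lactate dehydrogenase then turns pyruvate into lactate, which leaves the cell through monocarboxylate transporters. Under low oxygen the prolyl hydroxylases that mark HIF alpha subunits for degradation slow down, HIF accumulates, and it switches on most glycolytic genes together with genes for blood vessel growth, mitophagy and its own hydroxylases. Lkb1 is a kinase that activates AMPK, a brake on anabolic growth, as well as the SIK family of salt-inducible kinases.

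Libraries held 3847760 to 13955181 counts. All 35 members passed the filter on low counts. Levels are CPM, counts scaled to the size of each library. Stk11 stood at 9.21 to 16.5 CPM in Lkb1-deleted libraries against 30.9 to 44.5 in KT, and Sik3 at 8.72 to 21.0 in Sik-targeted libraries against 26.8 to 46.6. Sik1 was at 104 to 513 CPM in Sik-targeted libraries, above the 38.1 to 59.5 of KT, and at 148 to 213 in Lkb1-deleted libraries, whose labels name no guide. Sik2 was at 12.6 to 28.1 CPM in Sik-targeted and 17.3 to 31.7 in Lkb1-deleted libraries against 4.70 to 10.4 in KT, so of the Sik genes Sik3 alone was lower in Sik-targeted libraries. RNA levels do not measure the function of these kinases, since small insertions and deletions need not lower RNA. KT replicates 2 and 3 stood apart, with counts in 23582 and 23747 genes against 14283 to 16533 elsewhere. The 4 most abundant transcripts took between 18.4% (KT replicate 1) and 74.2% (sgSik1 replicate 1) of all counts. Epithelial markers were present in every library, with a summed level of 1220 to 5340 CPM, as was the alveolar type 2 list at 8840 to 89200. Outside KT leukocyte markers summed to 2.98 CPM or less, macrophage markers to 11.9 to 24.1 and neutrophil markers to 14.2 or less. The macrophage marker Emr1, which encodes the F4/80 antigen used in the sort, reached 2.80 CPM in KT. Pecam1, which encodes CD31, also excluded by the sort, was at 32.7 and 31.3 CPM in Lkb1-deleted replicates 2 and 3. In KT it was at 1.57 to 8.68 CPM.

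With Sik targeting, RNA of glycolysis genes rose along most of the pathway. Of the 22 glycolysis members 12 rose against KT, from the glucose transporter Slc2a1 to the lactate dehydrogenase Ldha, and 4 of the 13 hypoxia members rose: Vegfa, Adm, Ndrg1 and Egln3. None of the 35 fell. The members were chosen with earlier results of these data known, so their count beside the share of all genes is a description. That made 16 of 35 members at an adjusted p under 0.05 (edgeR quasi-likelihood test, Benjamini-Hochberg over all genes), where 5.82% of all 13575 tested genes rose and 6.54% fell. At an unadjusted p under 0.05 there were 20 members higher and 1 lower, Pfkfb4. DESeq2 called 18 up and 1 down, Pfkfb4, and limma-voom 17 up and 0 down. The median log2 change over all members was 1.27, against -0.03 over all genes. It was 1.45 over the glycolysis members and 0.04 over the hypoxia members.

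**Figure D1:**
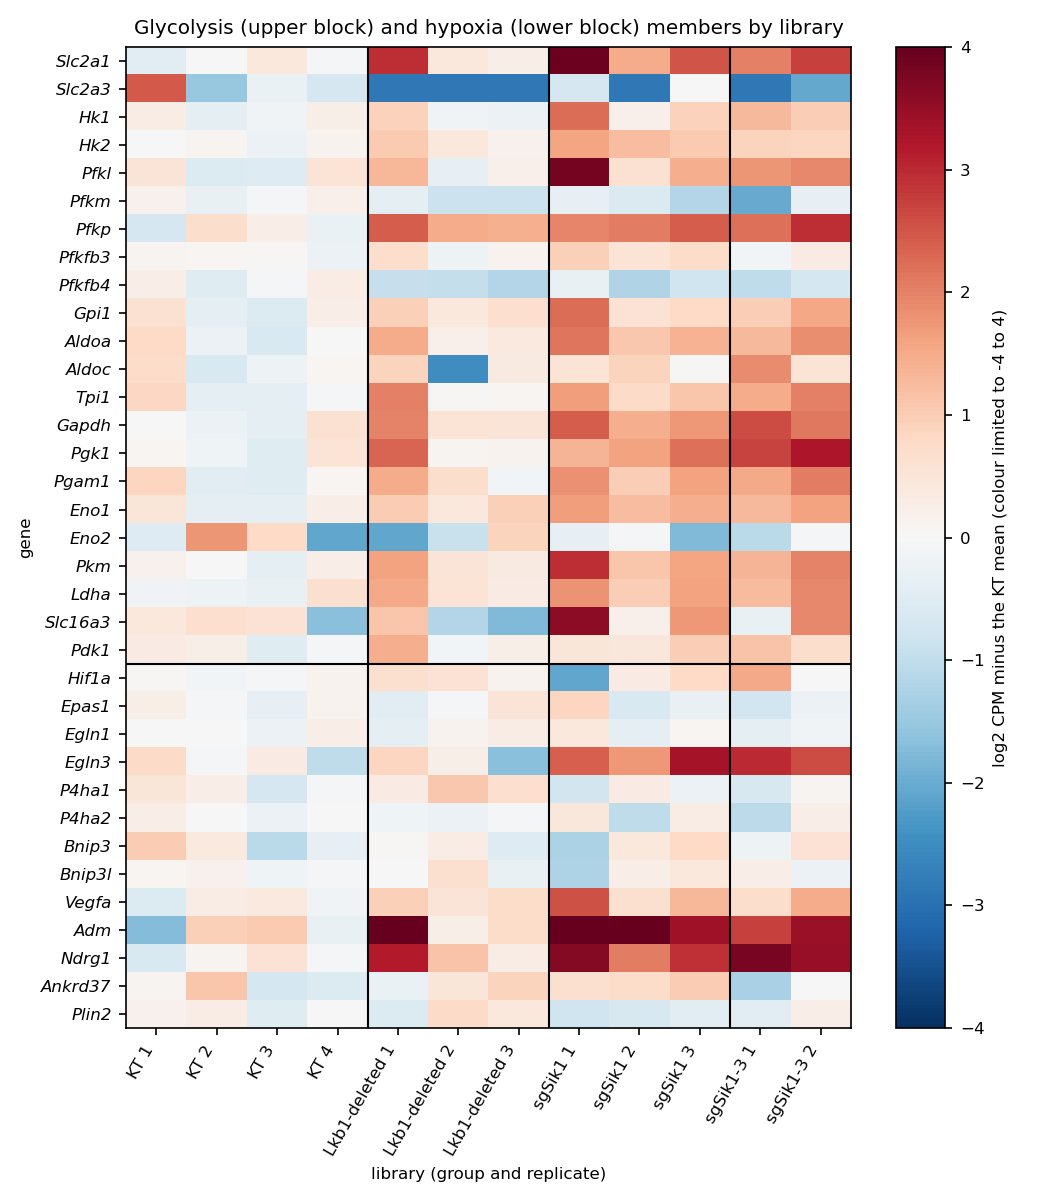
Log2 CPM of each member minus its KT mean (colour, limited to -4 and 4), with genes in rows and the 12 libraries in columns; glycolysis members are above the horizontal line and hypoxia members below it. The glycolysis rows are mainly red in the 5 Sik-targeted columns and in Lkb1-deleted replicate 1, and Slc2a3 had 0 counts in all 3 Lkb1-deleted libraries.

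Every library of the Sik-targeted group exceeded every KT library in 16 members, where this held for 7.33% of all tested genes. These were the members that rose, except Gpi1, and also Pdk1. The calls leaned on the KT libraries. Pfkp, Gapdh, Pgk1, Pkm, Slc2a1, Ndrg1 and Egln3 passed in all 12 fits that left out 1 library. The other 9 lost their call without KT replicate 2 and without KT replicate 3, each of which left 7 members called. Without KT replicate 4 there were 11 called. Without KT replicates 2 and 3 together only Pfkp was called, at a log2 change of 2.89 (adjusted p 0.0254), although the members' median change was still 1.00. Losses also came without KT replicate 1 (Vegfa and Adm), sgSik1 replicate 1 (Gpi1 and Adm), sgSik1 replicate 3 (Pgam1) and sgSik1-3 replicate 2 (Gpi1, Pgam1 and Vegfa). Over the 12 leave-one-out fits each of the 16 stayed higher in Sik-targeted libraries, with log2 changes of 0.96 or more.

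Promoters are shown for 4 members with the smallest p in any of the 6 comparisons (Pgk1 through sgSik1-3 against KT). They were taken among members with an entry in the RefSeq table of GRCm38.p6. The core motifs ACGTG and GCGTG, which HIF binds, were searched in them. Each sequence is the 250 bases upstream of the first listed start, 5′ to 3′ on the gene's strand, with matches on either strand in capitals. The Pfkp and Gapdh windows lie inside the RefSeq spans of these genes (chr13:6579874-6649060 and chr6:125161852-125166467). They are thus upstream of the start used, not of the whole gene.
Pfkp (chr13:6648772-6649021, minus strand): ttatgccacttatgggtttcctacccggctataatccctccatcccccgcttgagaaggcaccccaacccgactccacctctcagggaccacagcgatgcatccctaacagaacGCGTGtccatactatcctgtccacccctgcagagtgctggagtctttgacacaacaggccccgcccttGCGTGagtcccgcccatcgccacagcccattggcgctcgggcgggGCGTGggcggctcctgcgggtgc
Gapdh (chr6:125165774-125166023, minus strand): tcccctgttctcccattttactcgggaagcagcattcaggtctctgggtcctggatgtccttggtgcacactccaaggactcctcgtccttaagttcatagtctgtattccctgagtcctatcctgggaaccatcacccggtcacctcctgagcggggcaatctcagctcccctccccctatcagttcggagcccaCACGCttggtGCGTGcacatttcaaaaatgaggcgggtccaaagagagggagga
Pgk1 (chrX:106186850-106187099, plus strand): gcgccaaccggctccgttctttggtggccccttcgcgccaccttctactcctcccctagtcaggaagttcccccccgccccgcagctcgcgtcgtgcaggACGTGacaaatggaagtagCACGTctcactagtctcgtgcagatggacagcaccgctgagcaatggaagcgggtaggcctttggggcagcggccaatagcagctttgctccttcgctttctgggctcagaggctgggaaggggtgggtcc
Pkm (chr9:59656326-59656575, plus strand): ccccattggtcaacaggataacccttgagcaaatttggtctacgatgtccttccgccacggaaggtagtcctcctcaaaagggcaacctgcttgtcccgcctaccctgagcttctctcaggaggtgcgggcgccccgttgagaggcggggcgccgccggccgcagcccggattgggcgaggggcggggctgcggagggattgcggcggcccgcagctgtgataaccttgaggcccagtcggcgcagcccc
The Pfkp window holds 3 matches and those of Gapdh and Pgk1 hold 2 each, while the Pkm window holds 0. Of the members, 31 had an entry, and 24 of these (77.4%) held a match, against 10431 of 27025 genes (38.6%). The members were chosen by name as glycolysis and hypoxia genes, many of them known HIF targets. The excess thus describes the list and is no result of these libraries. The share was 73.3% among members called in any comparison (11 of 15) and 81.2% among the others (13 of 16). A match describes the letters alone, and in CACGTG the 2 strands' matches overlap and count as 2.

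Glucose enters through the Glut transporters and is trapped by hexokinase. Slc2a1, which encodes the basal transporter Glut1, had 19.0, 25.8, 33.9 and 24.8 CPM in KT, here and below in replicate order. In sgSik1 it reached 386, 70.7 and 147 CPM and in sgSik1-3 102 and 170. All 5 lay above KT, a log2 change of 2.76 (SE 0.61, adjusted p 0.0115), or 6.75-fold. In Lkb1-deleted libraries Slc2a1 was at 199 CPM in replicate 1 but at 33.8 and 30.4 in replicates 2 and 3, within the KT range (log2 change 1.76, SE 0.63, adjusted p 0.214). Slc2a3 (Glut3) was scarce, at 9.25, 0.371, 1.20 and 0.847 CPM in KT. It had 83 counts over KT and 0 over the Lkb1-deleted libraries, at least 17.5-fold lower against a floor of 3 counts over the group, but most of the KT counts came from replicate 1, and the adjusted p did not pass.

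Hk2, the inducible hexokinase, stood at 57.2, 61.6, 49.0 and 62.9 CPM in KT. Its level in sgSik1 was 173, 135 and 118 CPM and in sgSik1-3 107 and 103, so the groups did not overlap (log2 change 1.14, SE 0.28, adjusted p 0.0172). Dropping KT replicates 2 and 3 gave a change of 1.06 for Hk2 (adjusted p 0.204). In Lkb1-deleted libraries Hk2 was at 118, 76.4 and 64.7 CPM, all above KT but not past the threshold (0.58, SE 0.31, adjusted p 0.447). Hk1, the constitutive hexokinase, changed by 1.26 with Sik targeting (SE 0.40) and just missed the threshold (adjusted p 0.0501).

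Phosphofructokinase, the committed step, is a tetramer built from liver (Pfkl), muscle (Pfkm) and platelet (Pfkp) subunits. Pfkp was the 1 member that rose in both genotypes. KT libraries held 3.76, 10.2, 7.53 and 5.08 CPM and Lkb1-deleted ones 34.4, 17.9 and 16.9. The sgSik1 libraries held 25.0, 26.3 and 34.5 CPM and the sgSik1-3 libraries 29.7 and 49.1. Every library outside KT exceeded every KT library. The log2 change was 2.29 with Sik targeting (SE 0.38, adjusted p 0.00306; 32.9 ± 9.80 CPM, SD, n = 5, against 6.64 ± 2.83, n = 4) and 1.78 with Lkb1 deletion (SE 0.41, adjusted p 0.0478; 23.0 ± 9.87 CPM, n = 3). Both share the KT libraries. The Lkb1 call rested on every library: it passed in only 1 of the 12 leave-one-out fits, the one without sgSik1 replicate 1, with log2 changes of 1.38 to 2.05 and adjusted p up to 0.184.

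Pfkl stood at 24.9, 11.9, 12.2 and 25.6 CPM in KT, and at 250, 26.6, 48.2, 60.3 and 67.2 in the Sik-targeted libraries, in the order sgSik1 and then sgSik1-3. All lay above KT, sgSik1 replicate 2 barely so (log2 change 2.28, SE 0.60, adjusted p 0.0243). Without sgSik1 replicate 1, which was far above the others, the Pfkl change was 1.45. Pfkm moved the other way in level, at 4.38 to 6.35 CPM in KT, 2.87 to 4.12 in Lkb1-deleted and 1.18 to 4.34 in Sik-targeted libraries. Its groups did not overlap in either comparison, yet neither passed (-0.73, SE 0.48, and -0.82, SE 0.42, adjusted p 0.217 with Sik targeting). Of the bifunctional enzymes that set fructose 2,6-bisphosphate, the allosteric activator of phosphofructokinase, Pfkfb3 changed by 0.54 (SE 0.30) with Sik targeting. Pfkfb4 was lower, at 12.03 to 21.0 CPM in KT, 7.51 to 8.97 in Lkb1-deleted and 7.24 to 13.9 in Sik-targeted libraries. Its changes were -1.06 (SE 0.35, adjusted p 0.179) and -0.82 (SE 0.30, adjusted p 0.087), and the second passed with DESeq2.

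Divided by the length of each gene's merged exons, the 3 phosphofructokinase genes can be set against each other. Pfkm made up 20.8% to 25.7% of their summed CPM per kb in KT, 6.51% to 10.9% in Lkb1-deleted and 1.67% to 8.21% in Sik-targeted libraries. The Pfkp share was 9.12%, 33.7%, 25.9% and 11.6% in KT, and 37.9%, 47.2% and 37.9% in Lkb1-deleted libraries. In sgSik1 it was 7.81%, 42.4% and 37.0%, and in sgSik1-3 29.4% and 37.0%. In sgSik1 replicate 1 Pfkl alone took 90.3%. These shares are a description and were not tested.

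**Figure D2:**
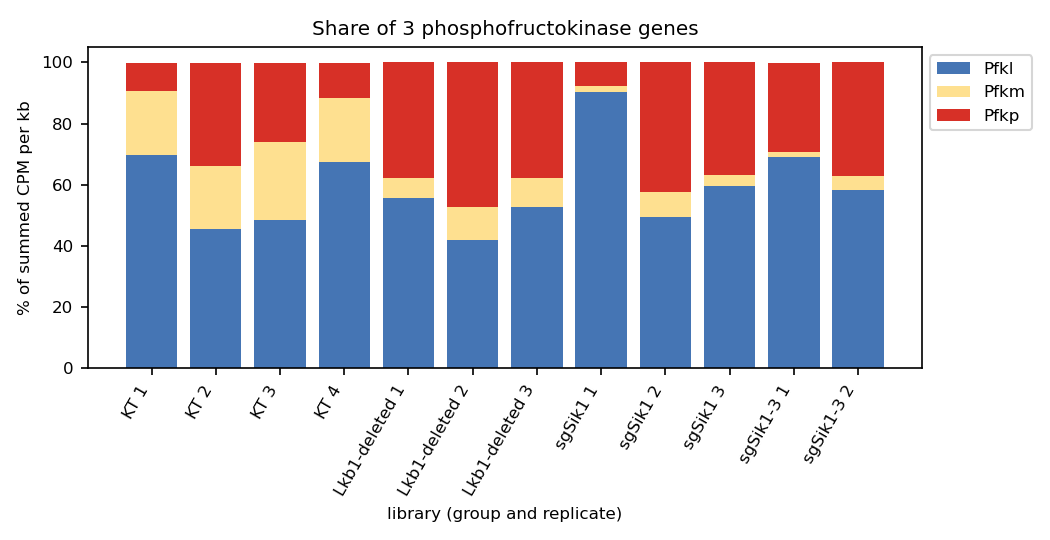
Shares of Pfkl, Pfkm and Pfkp in their summed CPM per kb (vertical axis, %) in each of the 12 libraries (bars). The Pfkm share is 20.8% or more in the 4 KT bars and 10.9% or less in the other 8.

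RNA of the middle steps rose in part. Gpi1, glucose-6-phosphate isomerase, rose by 1.30 (SE 0.38, adjusted p 0.0363), from 73.5, 37.7, 33.0 and 57.6 CPM in KT to 228, 71.1, 84.0, 95.4 and 141 in the Sik-targeted libraries. The groups overlapped, since sgSik1 replicate 2 lay below KT replicate 1. Aldoa, the main aldolase, rose by 1.51 (SE 0.38, adjusted p 0.021), from 217, 106, 81.8 and 125 CPM to 550, 260, 325, 304 and 448. When KT replicates 2 and 3 were dropped the Gpi1 and Aldoa changes were 0.90 and 1.13, with adjusted p of 0.389 and 0.288. Tpi1, triosephosphate isomerase, just missed (1.39, SE 0.45, adjusted p 0.0544), and the brain aldolase Aldoc, at 0.41 to 13.2 CPM, did not pass.

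RNA of the later steps, from Gapdh to Pkm, which as a phase yield ATP and NADH, moved mostly together. Of 6 members 5 rose with Sik targeting, and the neuronal enolase Eno2, at 0 to 3.19 CPM, did not pass. Gapdh, which reduces NAD while oxidising glyceraldehyde 3-phosphate, stood at 333, 280, 256 and 510 CPM in KT. It reached 1775, 902 and 1111 CPM in sgSik1 and 2012 and 1442 in sgSik1-3, all above KT (log2 change 2.07, SE 0.41, adjusted p 0.00706). In Lkb1-deleted libraries it was at 1317, 484 and 475 CPM, so only replicate 1 lay above the KT range (1.14, SE 0.44, adjusted p 0.255). Gapdh is often used as a loading reference, and it was 4.20-fold higher in Sik-targeted libraries.

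Pgk1, the first ATP-yielding enzyme, stood at 28.8, 24.3, 19.2 and 40.0 CPM in KT. The sgSik1 libraries held 70.0, 83.9 and 126 CPM and the sgSik1-3 libraries 177 and 256, all above KT and 5.09-fold higher (log2 change 2.35, SE 0.52, adjusted p 0.0121). In Lkb1-deleted libraries it was at 138, 28.9 and 29.7 CPM (1.23, SE 0.55, adjusted p 0.349). Without Lkb1-deleted replicate 1 that Pgk1 change fell to 0.08. Pkm, pyruvate kinase, which makes the second ATP, stood at 85.7, 74.6, 57.4 and 90.8 CPM in KT and at 587, 164, 225, 196 and 301 in the Sik-targeted libraries. These did not overlap with KT (1.93, SE 0.41, adjusted p 0.0101). Without KT replicates 2 and 3 the Gapdh, Pgk1 and Pkm changes of 1.76, 2.04 and 1.71 had adjusted p of 0.151, 0.197 and 0.166.

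Pgam1, phosphoglycerate mutase, and Eno1, the main enolase, were low in counts. Pgam1 stood at 7.05, 2.75, 2.64 and 4.02 CPM in KT and at 14.2, 7.81, 11.98, 11.3 and 16.6 in the Sik-targeted libraries (1.60, SE 0.43, adjusted p 0.0274). Eno1 stood at 3.76, 2.01, 1.92 and 3.18 CPM in KT and at 8.79, 6.53, 7.57, 6.83 and 8.49 in the Sik-targeted libraries (1.51, SE 0.37, adjusted p 0.0184). Both groups were apart from KT in every library. Their values are uncertain, because these enzymes have near-identical copies in the genome that can take or share reads. Gm5506, a near-identical copy of Eno1, held 0.183 to 83.4 CPM and was above Eno1 in 10 of the 12 libraries, so counts for enolase 1 may be split between the pair. The same caution holds for Gapdh, Aldoa, Pgk1, Tpi1 and Ldha, for which many processed copies are known.

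**Figure D3:**
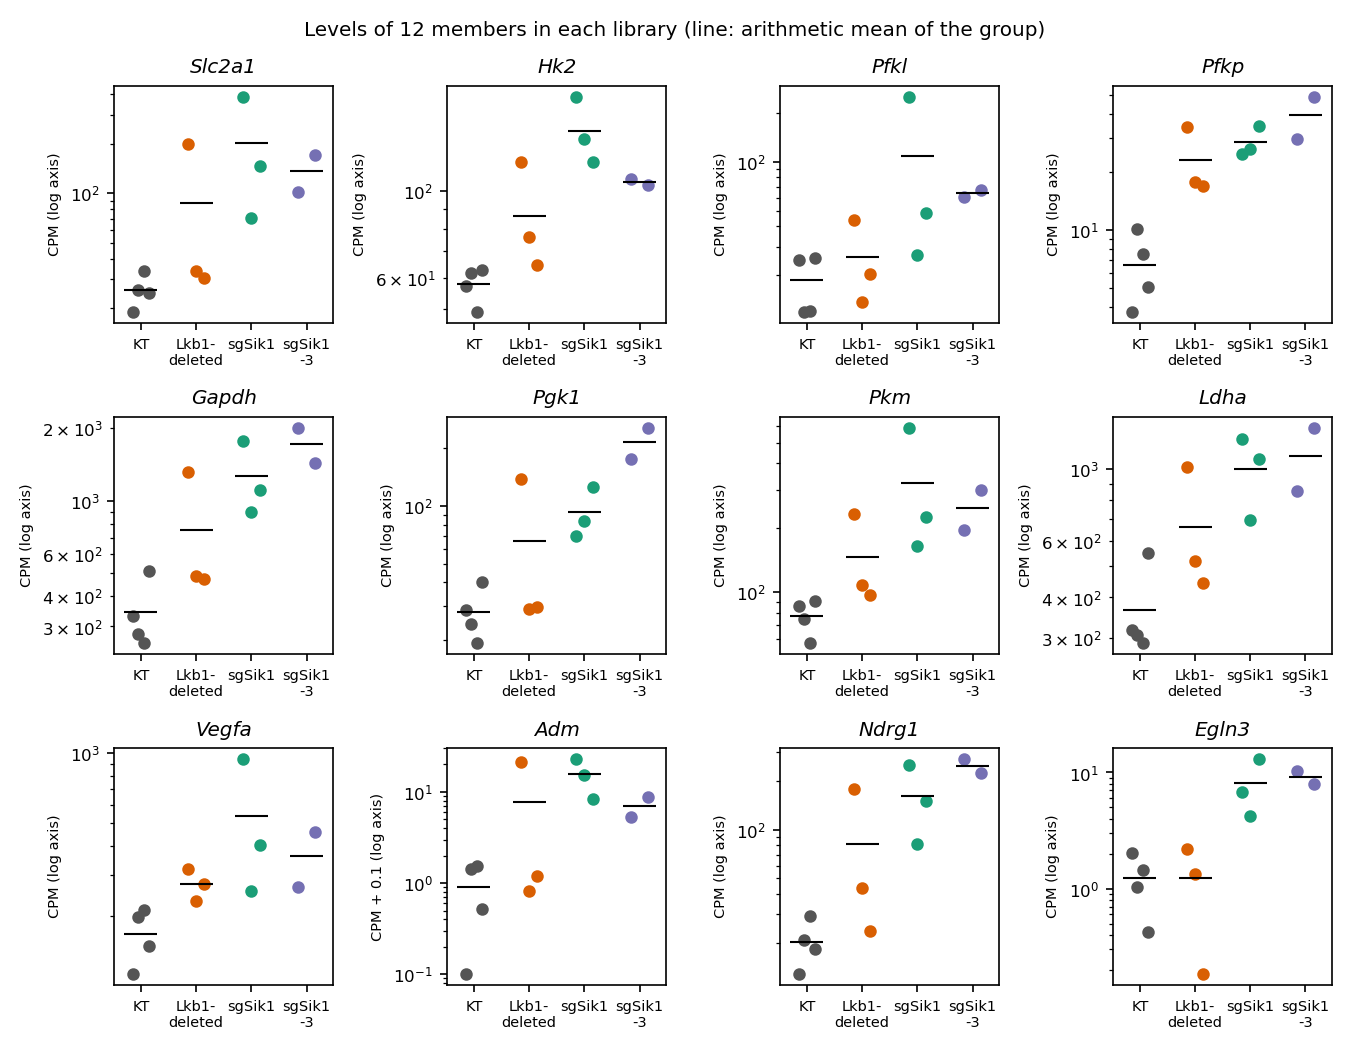
CPM of 12 members (log axes; Adm as CPM + 0.1), 1 point for each library and a line at the arithmetic mean of each of the 4 groups. All 5 Sik-targeted points lie above all 4 KT points in every panel, and Lkb1-deleted replicate 1 often lies among them. Lkb1-deleted replicates 2 and 3 lie near KT in most panels, but above every KT point for Hk2, Pfkp, Pkm and Vegfa.

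At the end of the pathway Ldha, the lactate dehydrogenase subunit that favours lactate, rose by 1.51 (SE 0.36, adjusted p 0.0156). It went from 317, 306, 289 and 549 CPM in KT to 1236, 696 and 1075 in sgSik1 and 855 and 1341 in sgSik1-3. Each of these lay above KT, whose replicate 4 was the highest of its group. The Ldha change was 1.24 (adjusted p 0.242) when KT replicates 2 and 3 were dropped. Slc16a3, the lactate exporter Mct4, was low and scattered, from 0.943 to 17.3 CPM in Sik-targeted libraries against 0.212 to 2.08 in KT (1.90, SE 0.88, not past the threshold). Pdk1, which inhibits pyruvate dehydrogenase, stood at 14.8 to 24.3 CPM in Sik-targeted libraries, above the 7.69 to 13.6 of KT, without passing (0.76, SE 0.36).

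Among the hypoxia members the secreted factors rose. Vegfa, the main vessel growth factor, had 112, 198, 212 and 148 CPM in KT. It reached 947, 256 and 404 CPM in sgSik1 libraries, and 266 and 456 in sgSik1-3 libraries. All lay above KT (log2 change 1.48, SE 0.40, adjusted p 0.0262). Without sgSik1 replicate 1 the Vegfa change was 1.04, still past the threshold. It was also at 316, 230 and 273 CPM in Lkb1-deleted libraries, each above KT, at a change of 0.71 that did not pass. Adm, the vasodilator peptide adrenomedullin, went from 0, 1.34, 1.44 and 0.423 CPM in KT to 23.0, 15.3, 8.22, 5.18 and 8.67 with Sik targeting (3.75, SE 0.99, adjusted p 0.0262). In Lkb1-deleted libraries Adm was at 21.3 CPM in replicate 1 but at 0.718 and 1.10 in replicates 2 and 3 (3.12, SE 1.03, adjusted p 0.179). Without replicate 1 that Adm change was 0.03.

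Ndrg1, a stress-induced gene long used as a hypoxia marker, moved most clearly of the hypoxia members. KT libraries held 12.9, 20.9, 29.4 and 18.4 CPM. The sgSik1 libraries held 250, 81.6 and 150 CPM and the sgSik1-3 libraries 273 and 221. That was 9.53-fold higher (log2 change 3.25, SE 0.56, adjusted p 0.00367) with no overlap. In Lkb1-deleted libraries Ndrg1 was at 177, 43.5 and 23.8 CPM (1.99, SE 0.57, adjusted p 0.116). Without KT replicates 2 and 3 the changes of Vegfa, Adm and Ndrg1 with Sik targeting were 1.81, 5.85 and 3.62, with adjusted p of 0.133, 0.124 and 0.0613.

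Egln3, a HIF prolyl hydroxylase that HIF itself induces, was set apart by genotype. KT libraries held 2.04, 1.04, 1.44 and 0.423 CPM and Lkb1-deleted ones 2.18, 1.33 and 0.183. The sgSik1 libraries held 6.80, 4.26 and 13.1 CPM, and the sgSik1-3 libraries 10.4 and 7.95. Every Sik-targeted library exceeded every other library. The change with Sik targeting was 2.75 (SE 0.60, adjusted p 0.0107), and 2.74 without KT replicates 2 and 3 (adjusted p 0.15), while that with Lkb1 deletion was 0.02 (SE 0.65). The direct comparison of Lkb1-deleted with Sik-targeted libraries gave -2.73 for Egln3 (SE 0.67), which did not pass (adjusted p 0.113) but did with DESeq2. Egln1, the main oxygen sensor of this family, changed by -0.05 with Sik targeting (SE 0.27).

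The other hypoxia members did not pass with Sik targeting, all at log2 changes between -0.38 and 0.51. Hif1a (HIF-1 alpha) had 69.1, 61.7, 62.2 and 72.6 CPM in KT libraries and 104, 98.9 and 73.1 with Lkb1 deletion. It ranged widely with Sik targeting, from 15.6 CPM in sgSik1 replicate 1 and 83.2 and 115 in the other sgSik1 libraries to 191 and 67.6 in sgSik1-3 (0.51, SE 0.47). HIF alpha is controlled mainly at the protein level, which RNA does not show. Epas1 (HIF-2 alpha) was the more abundant subunit per length, at 89.8 ± 14.8 CPM per kb in KT against 12.2 ± 0.98 for Hif1a (SD, n = 4).

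Bnip3, a mitophagy receptor, stood at 32.1, 21.2, 7.37 and 12.7 CPM in KT and at 6.52 to 27.7 in Sik-targeted libraries, overlapping KT (0.04, SE 0.45). Its relative Bnip3l changed by 0.01 (SE 0.33). P4ha1, a collagen prolyl hydroxylase, had 70.8, 60.2, 31.4 and 48.9 CPM in KT libraries, 63.1, 107 and 80.2 with Lkb1 deletion and 30.1 to 63.3 with Sik targeting (-0.24, SE 0.32). P4ha2, the ankyrin repeat gene Ankrd37 and the lipid droplet gene Plin2 changed by -0.08, 0.24 and -0.38. So 4 of 13 hypoxia members rose, while the mitophagy receptors, the collagen hydroxylases, both alpha subunits and Egln1 did not pass.

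**Figure D4:**
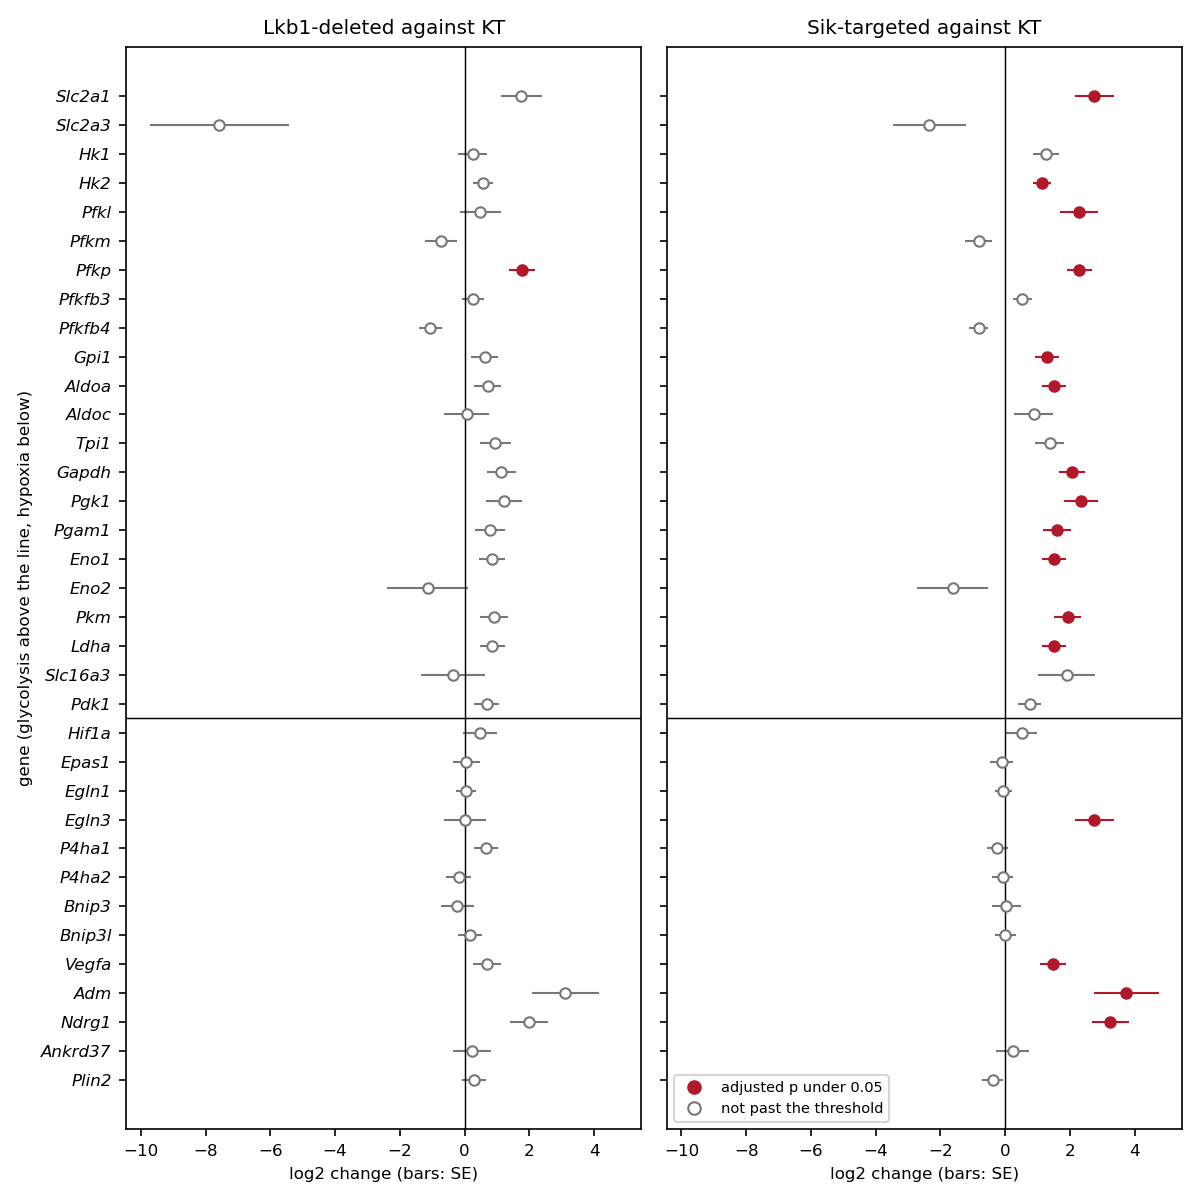
Log2 change of each of the 35 members against KT (points, horizontal axis; bars are the SE) with Lkb1 deletion (left) and Sik targeting (right), filled red where the adjusted p is under 0.05. With Sik targeting 16 points are red and with Lkb1 deletion 1, and the fitted Slc2a3 value at left rests on 0 counts and is no estimate of size.

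With Lkb1 deletion 1 member rose, Pfkp, and 0 fell (edgeR; 7 members higher and 2 lower, Pfkfb4 and Slc2a3, at an unadjusted p under 0.05; DESeq2 called 3 up and 1 down, limma-voom 1 up and 0 down). The background was 0.611% of genes up and 0.552% down. The median log2 change of the members was 0.48, also with Slc2a3 at its bound, against -0.04 over all genes, and 28 of 35 changes were positive. Every Lkb1-deleted library exceeded every KT library in 5 members (Hk2, Pfkp, Pkm, Vegfa and Hif1a), where this held for 6.39% of all genes.

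The Lkb1-deleted libraries did not behave alike. Of the 16 members that rose with Sik targeting, replicate 1 lay above all KT libraries in 16, replicate 2 in 5 and replicate 3 in 6. Replicate 1 reached at least the lowest Sik-targeted library in 14 of the 16, replicate 2 in 0 and replicate 3 in 2. The mean log2 CPM of the 22 glycolysis members, set against KT, was 0.96, -0.19 and 0.01 in replicates 1, 2 and 3. KT ran from -0.17 to 0.34 and Sik-targeted libraries from 0.58 to 1.62. Low counts pull some of these means down. Slc2a3, at 0 counts, entered at -2.85 in every Lkb1-deleted library, sgSik1 replicate 2 and sgSik1-3 replicate 1. Aldoc entered at -2.49 in Lkb1-deleted replicate 2, from 4 counts. Without replicate 1 the members' median change with Lkb1 deletion was 0.23 against -0.14 over all genes.

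Set directly against Sik-targeted libraries, the Lkb1-deleted libraries differed in 0 of 35 members (edgeR; 8 lower and 1 higher at an unadjusted p under 0.05; DESeq2 called 1, Egln3, and limma-voom 0). Over all genes 0.221% passed. The members' median was -0.63, lower in Lkb1-deleted libraries. Without Lkb1-deleted replicate 1, 5 members were lower and passed: Slc2a1 (-2.45, adjusted p 0.0233), Pgk1 (-2.29, adjusted p 0.0203), Adm (-3.74, adjusted p 0.0274), Ndrg1 (-2.54, adjusted p 0.0118) and Egln3 (-3.36, adjusted p 0.0214). Without sgSik1 replicate 2, 1 member passed. The count of members that differed between the genotypes thus moved from 0 to 5 with a single library.

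The 2 kinds of Sik-targeted tumour were also set against KT separately. With sgSik1, 10 members rose and 0 fell (edgeR; 20 higher and 0 lower at an unadjusted p under 0.05; DESeq2 16 up, limma-voom 13 up, 0 down in either), against 2.71% and 1.13% of 15303 genes. These were Hk2, Pfkl, Pfkp, Gapdh, Pkm, Slc2a1, Vegfa, Adm, Ndrg1 and Egln3, at a median of 1.32 over the members and -0.10 over all genes. With sgSik1-3, 5 rose and 0 fell (18 higher and 1 lower at an unadjusted p under 0.05; DESeq2 12 up, limma-voom 5 up, 0 down in either), against 1.74% and 1.15% of genes. They were Pfkp, Gapdh, Pgk1, Ndrg1 and Egln3, at a median of 1.13 against -0.25. Without sgSik1 replicate 1, only Pfkp was called with sgSik1, and the median fell to 0.71. Without sgSik1-3 replicate 2 the count with sgSik1-3 was 1, and without sgSik1-3 replicate 1 it was 2. Without KT replicate 1, 2, 3 or 4 it was 4, 1, 2 and 3 with sgSik1, and without any 1 of the first 3 it was 3 with sgSik1-3. It was 6 with sgSik1 without sgSik1 replicate 3. It rose to 12, 9 and 8 with sgSik1-3 without Lkb1-deleted replicate 1, sgSik1 replicate 1 or sgSik1 replicate 2. Neither comparison called a member without KT replicates 2 and 3.

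Compared with each other, sgSik1-3 and sgSik1 libraries differed in 0 members and in 0% of all genes (edgeR; 0 members and 528 of 15303 genes at an unadjusted p under 0.05; DESeq2 called 0 members and 6 genes, limma-voom 0 of either). With 2 libraries against 3 this does not show that they are alike. Pgk1 came nearest of the members named here, with both sgSik1-3 libraries above all of sgSik1 (log2 change 1.21, SE 0.59, adjusted p 1).

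Sik-targeted libraries differed among themselves. Of the 16 members that rose, sgSik1 replicate 1 was the highest of the 12 libraries in 9, sgSik1-3 replicate 2 in 4, sgSik1-3 replicate 1 in 2 and sgSik1 replicate 3 in 1. The mean over glycolysis members exceeded KT by 1.62, 0.58 and 0.98 (log2) in the sgSik1 libraries, in replicate order, and by 0.84 and 1.28 in those of sgSik1-3. For the hypoxia members it was 0.75, 0.63 and 1.03 in sgSik1 and 0.56 and 0.90 in sgSik1-3, against -0.15 to 0.26 in KT. Vegfa, Adm, Ndrg1 and Egln3 made up most of these hypoxia means with Sik targeting. The median change of the hypoxia members was 0.04. Lkb1-deleted libraries had hypoxia means of 0.69, 0.45 and 0.17.

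Genes around the module were counted from lists chosen for their role, but with earlier results of these data known. Their counts beside the share of all genes are thus a description. Of 34 tested hypoxia-induced genes outside the module, 10 rose and 1 fell with Sik targeting, at a median of 0.76, where 5.82% of all genes rose and 6.54% fell. Stc1, a stanniocalcin, rose by 6.60 (SE 0.52, adjusted p 1.57e-05), from 1.91 to 4.98 CPM in KT to 177 to 425. Car9, the carbonic anhydrase that is a classical HIF target, rose by 4.96 (SE 0.58, adjusted p 0.000376), from 1.34 to 2.96 CPM to 19.9 to 104. Stc2 rose by 4.32 (SE 0.68, adjusted p 0.00224). These 3 passed in all 12 leave-one-out fits. Without KT replicates 2 and 3 Stc1 (7.18) and Car9 (4.74) still passed while Stc2 did not (4.00, adjusted p 0.0761). The list's rises numbered 4 to 12 over the leave-one-out fits (4 without KT replicate 2 and 5 without KT replicate 3) and its falls 0 to 2, and 3 genes rose when KT replicates 2 and 3 were both dropped.

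Lkb1 deletion called 1 of these 34, Stc1 (5.43, SE 0.51, adjusted p 0.000181), which lay at 86.1 to 229 CPM and passed in all 12 leave-one-out fits. Car9 and Stc2 did not follow. Car9 stood at 0.121, 0.616 and 1.47 CPM in Lkb1-deleted libraries, and the direct comparison with Sik-targeted libraries gave -6.40 (SE 0.73, adjusted p 0.00274), past the threshold in all 12 leave-one-out fits. For Stc2 it gave -3.96 (SE 0.75, adjusted p 0.0421), which passed in 2 of the 12, the fits without Lkb1-deleted replicate 1 or sgSik1 replicate 2, with adjusted p up to 0.167. So Lkb1-deleted replicate 1, close to the Sik-targeted libraries in most glycolysis members and Stc1, held the lowest Car9 level of all libraries. That level, 0.121 CPM, was 1 count, under the floor of 3 counts. Its rank among the Lkb1-deleted libraries is thus uncertain.

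Other arms of glucose use were counted in the same way, to be read against the 5.82% of all genes that rose and the 6.54% that fell. Of 13 genes of pyruvate oxidation and lactate use 0 rose and 2 fell with Sik targeting, at a median of -0.54. Ldhb, the lactate dehydrogenase subunit that favours pyruvate, fell by 2.92 (SE 0.82, adjusted p 0.0343). KT libraries held 87.3, 49.5, 39.7 and 78.3 CPM, those of sgSik1 4.82, 22.6 and 3.65 and those of sgSik1-3 5.18 and 5.60, the opposite direction to Ldha. In Lkb1-deleted libraries Ldhb was at 0.485 CPM in replicate 1 and at 44.4 and 42.9 in replicates 2 and 3. Mpc1, a subunit of the mitochondrial pyruvate carrier, fell by 1.74 (SE 0.46, adjusted p 0.025). Ldhb kept its call in 4 of 12 leave-one-out fits (lost without any KT library, sgSik1 replicate 1 or 3 or either sgSik1-3 library) and Mpc1 in 8 (lost without KT replicate 1, 2 or 4 or sgSik1-3 replicate 2). Neither passed without KT replicates 2 and 3 (Ldhb -3.31, adjusted p 0.141, and Mpc1 -2.10, adjusted p 0.0994).

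A single call in a list of 5 to 10 genes is no result about the list. In gluconeogenesis 1 of 5 genes rose, Fbp1 (2.27, SE 0.66, adjusted p 0.0358), and in the pentose phosphate pathway 1 of 8, G6pdx (0.97, SE 0.30, adjusted p 0.048), its first enzyme. Both calls were fragile, passing in 4 and 3 of 12 leave-one-out fits, and were lost without any 1 of the KT libraries. Fbp1 also lost it without any sgSik1 library or sgSik1-3 replicate 2, and G6pdx without Lkb1-deleted replicate 3, sgSik1 replicate 2 or 3 or either sgSik1-3 library. Their changes without KT replicates 2 and 3 were 2.42 (adjusted p 0.24) and 0.66 (adjusted p 0.463). None of 17 citric acid cycle genes passed (2 higher at an unadjusted p under 0.05, median 0.24), and none of 13 HIF pathway components did (1 higher and 1 lower at an unadjusted p under 0.05, median 0.10). Of 10 tested isozymes and regulators outside the module 0 rose and 1 fell, the testis isoform Gapdhs (-2.67, SE 0.84, adjusted p 0.0484), at 7.29 CPM or less in every library. That call held in 4 of 12 leave-one-out fits, was lost without KT replicate 1, 2 or 3, Lkb1-deleted replicate 3, sgSik1 replicate 1 or 3 or either sgSik1-3 library, and stood at -1.28 (adjusted p 0.652) without KT replicates 2 and 3. With Lkb1 deletion 0 genes of these 6 lists passed in edgeR, with 0 to 2 genes per list at an unadjusted p under 0.05.

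Other measures moved with the module. Early response and heat shock genes, known to be switched on when tissue is digested warm and listed as the dissociation response, had a summed level of 2350 to 6150 CPM in KT, 15100 to 23800 in Lkb1-deleted, 11300 to 29600 in sgSik1 and 10300 to 12100 in sgSik1-3 libraries. Of its 21 genes 9 rose with Lkb1 deletion and 11 with Sik targeting, where 0.611% and 5.82% of all genes did, and 0 in either without KT replicates 2 and 3. Leaving out 1 library gave 6 to 13 with Sik targeting, with 6 without KT replicate 2 or 3. With Lkb1 deletion it gave 0 without KT replicate 2 or 3, 1 without KT replicate 1, 2 without sgSik1-3 replicate 2, and 3 or 4 without KT replicate 4, sgSik1 replicate 3 or any Lkb1-deleted library. It gave 14 without sgSik1 replicate 1, while the list's median change with Lkb1 deletion lay between 1.66 and 2.10 over these fits. Lkb1-deleted replicates 2 and 3 had sums of 15100 and 15700 CPM in this list. Their glycolysis means against KT were -0.19 and 0.01. In both, Hk2, Pfkp and Pkm lay above every KT library and Pfkm, Pfkfb4 and Slc2a3 below. Whether these measures are linked was not tested. Club cell markers summed to 394 to 3120 CPM in KT and to 24.0 to 104 elsewhere, ciliated cell markers to 35.1 to 66.8 against 0.653 to 21.1, and macrophage markers to 67.1 to 1040 against 11.9 to 24.1. Leukocyte markers summed to 11.9 to 33.1 CPM in KT and to 2.98 or less elsewhere, with the pan-leukocyte gene Ptprc at 0 in 4 libraries and Emr1 at 0 in all Lkb1-deleted and 4 of 5 Sik-targeted libraries. Endothelial and fibroblast sums were 1.33 and 1.94 CPM in Lkb1-deleted replicate 1 but reached 214 and 402 in the others of that group, against 14.7 to 40.2 and 28.7 to 392 in KT and at most 42.5 and 51.3 with Sik targeting. Neutrophil and erythroid sums were 14.2 CPM or less in every library. The alveolar type 2 sum ran from 23300 to 89200 CPM in KT, 13600 to 36000 in Lkb1-deleted, 8990 to 32100 in sgSik1 and 8840 to 9480 in sgSik1-3 libraries, so that only sgSik1-3 did not overlap KT. The epithelial sum was 1220 to 1600 CPM in KT and higher in every other library, at 1730 to 2760 in Lkb1-deleted, 2150 to 5340 in sgSik1 and 2950 to 4250 in sgSik1-3. The share of the 4 most abundant transcripts was 18.4% to 48.1% in KT and 36.5% to 74.2% in Sik-targeted libraries, and 17 members were called with Sik targeting when these transcripts were left out of library sizes. That fit bears only on the scaling of the libraries. The part of these measures, that share included, in the module's changes was not tested. In sorted bulk samples fewer cells of a type and less RNA per cell cannot be told apart.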

How the data were processed

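The deposited table holds counts of reads per gene symbol, made by the authors from poly(A) RNA of sorted cells after cDNA amplification. Per the submitters' processing notes STAR 2.4.2a, HTSeq and mm10 were used; which annotation was counted, and on which strand, is not given in the sources used here. Amplified reads carry no molecule tags, so the floors cover counting error only. Libraries held 3847760 to 13955181 counts; 1 count was worth 0.0544 to 0.284 CPM. Libraries of 1 group all differed by more than sampling noise (lowest chi-square per degree of freedom 15.1).

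The test was that of edgeR 4.0.16 under R 4.3.3 (TMM, filterByExpr, robust quasi-likelihood F test, 2-sided, Benjamini-Hochberg over all tested genes, threshold 0.05, no minimum fold). The comparisons of genotypes came from a fit of all 12 libraries in 3 groups (13575 genes, common dispersion 0.262) and those of sgSik1 and sgSik1-3 from a fit in 4 groups (15303 genes, 0.287). The SE is the absolute log2 change over the square root of F. CPM use TMM effective library sizes, and log2 CPM a prior count of 2. Alternatives were DESeq2 1.42.0, limma-voom 3.58.1, other scalings, no filter, only the groups compared, a replicate block and left-out libraries.

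The members and lists were chosen with earlier results of these data known. Every member may be named; values by library are given for members past the threshold in any comparison and, in a role with none, for the 1 with the smallest p. Outside the module up to 3 genes per list with the smallest p are named. Promoters are RefSeq's for GRCm38.p6, for up to 4 members with the smallest p in any comparison; Slc2a3, Epas1, Ndrg1 and Bnip3l had no entry. Guide and protein sequences were not used here.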

Additional observations from a re-analysis of the deposited data

Results flagged for a closer look

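Of 70 sets of values (35 members in KT and in Sik-targeted libraries, on the log2 CPM scale), 3 had 1 library far from the rest by Dixon's test at its 95% critical value, where chance would flag about 1 in 20, or 3.5. All 3 concern KT replicate 4, the library with the second lowest total count. Ldha stood there at 549 CPM against 289 to 317 in the other KT libraries. Pfkfb3 stood at 14.0 CPM against 17.1 to 17.7, and Slc16a3, which is near the floor of 3 counts, at 0.212 against 1.72 to 2.08. Without this library Ldha still rose with Sik targeting.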

How the results depend on the processing

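In comparisons with KT no member that was called changed direction under any setting run. The count of members called with Sik targeting (16) stayed within 1.5 times under other scalings, tools and filters. It was 1 without KT replicates 2 and 3, and 1 when sgSik1 replicate 1 was left out as well, an alternative chosen after seeing the data. Leaving out 1 library gave 7 to 18. The count with Lkb1 deletion (1) was 0 with upper-quartile scaling, with only the groups compared, with a replicate block and without KT replicates 2 and 3, with or without sgSik1 replicate 1. It was 4 with DESeq2, 5 without a filter and 0 to 1 when 1 library was left out. Between Lkb1-deleted and Sik-targeted libraries (0) it was 1 with DESeq2, 2 without a filter and 0 to 5 when 1 library was left out. With sgSik1 (10) it was 16 with DESeq2, 1 with the replicate block, 0 without KT replicates 2 and 3, with or without sgSik1 replicate 1, and 1 to 14 when 1 library was left out. With sgSik1-3 (5) it was 12 with DESeq2, 12 without a filter, 15 with only the groups compared, 2 with the replicate block, 0 without KT replicates 2 and 3, 1 without those and sgSik1 replicate 1, and 1 to 12 when 1 library was left out. Where an arm kept 1 library, that library was assumed to vary like the other groups.

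Upper-quartile scaling moved the median of all genes to -0.19 with Sik targeting and to -0.26 and -0.38 with sgSik1 and sgSik1-3. In the check of pairing, same-numbered libraries had correlations of -0.31 to 0.22 over 15 pairs, on deviations from the mean of each title group. The 2 sgSik1-3 libraries deviate in mirror image, as with sgSik1 replicate 1 (-0.31 and 0.31). The check therefore cannot decide whether the numbers pair the libraries. With the replicate block 12 members were called with Sik targeting. Reversals were confined, in the called members' changes, to 2 uncalled values with Lkb1 deletion. Egln3 (0.02) was -0.11 with upper-quartile scaling, -0.20 with limma-voom, -0.23 with the replicate block, -0.01 without KT replicates 2 and 3 and sgSik1 replicate 1, and -0.58 to 0.50 when 1 library was left out. Pfkl (0.48) was -0.12 to 0.81 when 1 library was left out. The cause of these shifts was not tested. Members under the floor of 3 counts, 0.163 to 0.851 CPM by library, such as Slc2a3, are limited by depth.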
